A study of Mus musculus with 6 samples.

Results

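The blood-brain barrier transporters described here were 10 genes chosen by symbol from the 24421 genes of a count table: Slc2a1, Slc16a1, Slc7a5, Slc7a1, Slc38a5, Abcb1a, Abcg2, Abcc4, Mfsd2a and Slco1c1. All 10 had a row. The table held polyadenylated RNA of endothelial cells, which line blood vessels; these came from mouse brain, were cultured in medium with serum and were sorted by fluorescence before RNA extraction. There were 3 libraries labelled KO (Fli-1 knockout, numbered 1 to 3) and 3 labelled WT (numbered 1 to 3), both taken after 6 days with a vascular niche in co-culture. The label of every library, WT included, states that deletion of Fli-1 alleles was induced with 4-OHT (4-hydroxytamoxifen, a drug used to switch on inducible recombinases), without naming the recombinase, its driver or the deleted exons. Nothing in the labels tells separate cultures or animals apart within a group, so p-values measure only the spread between these libraries, which may be technical.

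Brain capillaries are sealed by tight junctions, so nutrients must be carried across the endothelial cell by membrane proteins, and many drugs that enter it are pumped back into the blood. Slc2a1 (GLUT1) carries glucose, Slc16a1 (MCT1) carries lactate and ketone bodies, and Slc7a5 (LAT1), Slc7a1 (CAT1) and Slc38a5 (SNAT5) carry large neutral amino acids, cationic amino acids and glutamine. Abcb1a (P-glycoprotein), Abcg2 (BCRP) and Abcc4 (MRP4) are ATP-driven efflux pumps, Mfsd2a carries lysophospholipids with docosahexaenoic acid and restrains vesicle transport, and Slco1c1 takes up thyroxine. Endothelial cells taken out of the brain are known to lose part of this barrier programme in culture. All 6 libraries here were of cultured cells, so a loss relative to uncultured cells was not measured.

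Total counts lay between 17550185 and 21385951 per library. Fli1, the targeted gene, went against the labels, with 76.8, 111 and 77.3 CPM (reads per library of equal size, after TMM scaling) in the libraries labelled KO and 45.3, 59.5 and 45.7 CPM in those labelled WT, and a count per gene does not check a deletion of single exons. All directions below are therefore those of the libraries labelled KO relative to those labelled WT. Of 12 endothelial markers, 12 had at least 1 CPM in every library, and their summed level was 16110 to 17970 CPM in libraries labelled KO and 15440 to 16970 CPM in those labelled WT. The fibroblast list summed to 112.5, 908 and 405 CPM in libraries KO 1 to 3 and 154, 1272 and 440 CPM in WT 1 to 3. Both libraries numbered 2 thus stood apart from the others in fibroblast transcripts, and within each number the library labelled KO had the lower sum. The mural list differed from this, with 1445, 1884 and 1895 CPM in KO 1 to 3 and 1426, 2254 and 1596 CPM in WT 1 to 3. In bulk RNA, fewer cells of a type and less RNA per cell cannot be told apart.

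Of the 10 genes, 7 were expressed in culture, with at least 1 CPM in all 6 libraries, and the other 3 were at or near 0. The 7 were Slc2a1, Slc7a5, Abcb1a, Abcg2, Slc7a1, Abcc4 and Slc16a1. Mfsd2a, Slc38a5 and Slco1c1, which are among the genes used to mark brain capillaries, had 37, 5 and 2 reads in all 6 libraries together. The same division was found with a minimum of 5 CPM or of 0.5 CPM.

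To compare genes with each other, levels were divided by the length of their exons (CPM per kilobase). Slc2a1 had the highest level of the set, 146 ± 30.7 CPM per kilobase in the libraries labelled KO and 147 ± 30.0 in those labelled WT (SD, n = 3 each), above 98.2% of the tested genes. Slc7a5 came next with 47.0 ± 10.05 and 38.8 ± 8.23 CPM per kilobase in the same order, above 91.9% of tested genes. The pumps followed. Abcb1a had 24.2 ± 5.57 CPM per kilobase in libraries labelled KO and 24.97 ± 5.14 in those labelled WT, and Abcg2 had 18.25 ± 3.15 and 15.4 ± 2.14 (SD, n = 3 each). The ranges of Slc7a5 and Abcb1a, and of Abcb1a and Abcg2, touched across libraries, but within each of the 6 libraries the order was Slc7a5, Abcb1a, Abcg2. Slc7a1 and Abcc4, at means of 10.4 and 9.79 CPM per kilobase over all 6 libraries, did not differ beyond their spread, and Slc7a1 was the higher in 4 of 6 libraries. Slc16a1 was the lowest of the 7, at 3.52 ± 0.386 CPM per kilobase in libraries labelled KO and 3.16 ± 0.264 in those labelled WT (SD, n = 3 each), above 35.8% of tested genes.

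**Figure D1:**
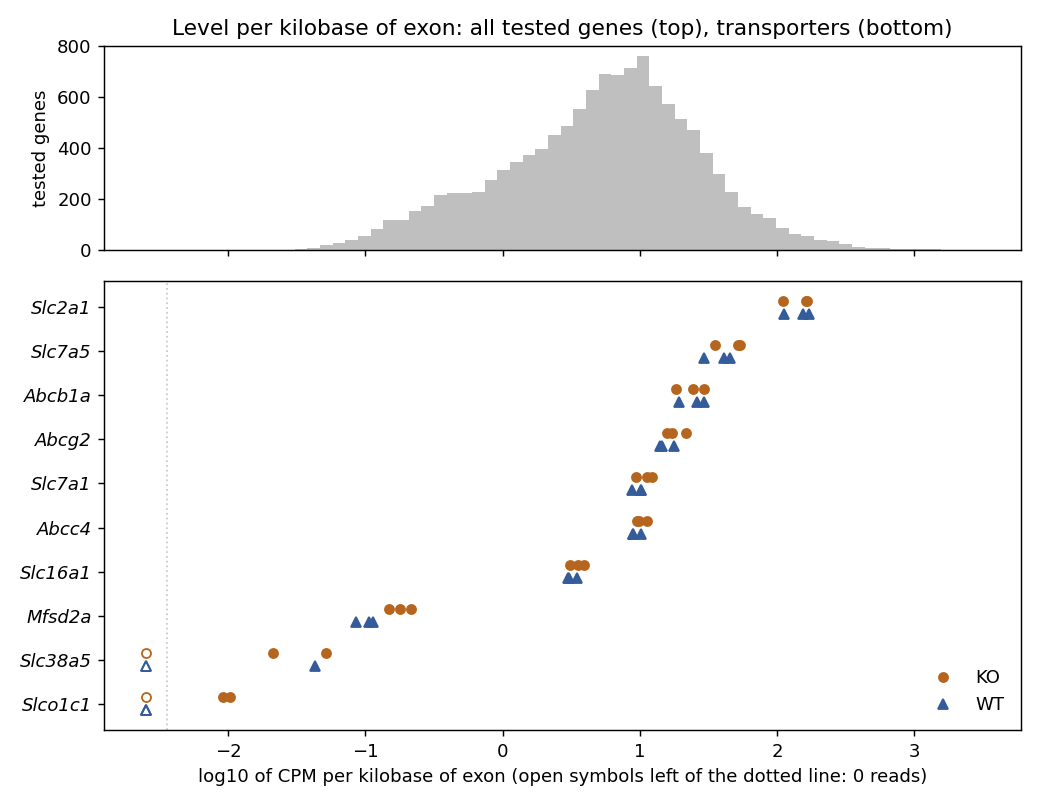
Level per kilobase of exon (log10 of CPM per kilobase). The top panel counts all tested genes with a known length; the bottom panel shows each library as a point, KO as circles above WT as triangles, with open symbols for 0 reads. From Slc2a1 to Slc16a1, 7 transporters lie within the bulk of tested genes or above it, and Mfsd2a, Slc38a5 and Slco1c1 lie to its left.

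The 3 genes near 0 could not be compared between the groups. Mfsd2a had 7, 9 and 7 reads in libraries KO 1 to 3, against 4, 5 and 5 reads in WT 1 to 3, so every KO value lay above every WT value. The sums were 23 reads (95% exact Poisson interval 14.6 to 34.5) and 14 reads (7.65 to 23.5), and these intervals, which cover counting error only, overlap. Tested without a filter on low counts, Mfsd2a had an edgeR adjusted p of 0.971 between the groups and 0.653 with replicate number as a block. Slco1c1 had 1, 1 and 0 reads in libraries labelled KO and 0 in each library labelled WT. Slc38a5 had 1, 0 and 2 reads in libraries labelled KO and 2, 0 and 0 in those labelled WT. A count of 0 allows up to 0.142 to 0.174 CPM, depending on the library (3 reads). Slco1c1 and Slc38a5 were below this level in every library, so no fold change is given for them.

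The RefSeq promoter table (GRCm38.p6, 250 bases before to 50 after each start) held 13 windows for 9 of the 10 genes. Slc7a5 had no window, so the motif and CpG values below do not cover it. Fli-1 belongs to the ETS family, whose members bind DNA around the letters GGAA, and these letters were searched on both strands. GGAA was found in 12 of the 13 windows, and in 96.0% of all 32851 windows. The longer ETS motif CCGGAAGT, which contains GGAA and was also searched on both strands, was found in 0 of the 13 windows and in 3.89% of all windows. The 250 bases before the most upstream RefSeq start of Abcg2 and Slc7a1, members that were higher in the paired test, of Slc2a1, the most abundant member, and of Slco1c1, which had almost no reads, set these matches in view. Capitals mark GGAA or its complement TTCC.
Abcg2, chr6:58584283-58584532, plus strand: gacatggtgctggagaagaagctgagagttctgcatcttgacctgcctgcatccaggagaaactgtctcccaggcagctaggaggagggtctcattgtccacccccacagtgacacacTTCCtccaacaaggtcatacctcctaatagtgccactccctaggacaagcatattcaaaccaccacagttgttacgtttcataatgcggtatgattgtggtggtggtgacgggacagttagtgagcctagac
Slc7a1, chr5:148399905-148400154, minus strand: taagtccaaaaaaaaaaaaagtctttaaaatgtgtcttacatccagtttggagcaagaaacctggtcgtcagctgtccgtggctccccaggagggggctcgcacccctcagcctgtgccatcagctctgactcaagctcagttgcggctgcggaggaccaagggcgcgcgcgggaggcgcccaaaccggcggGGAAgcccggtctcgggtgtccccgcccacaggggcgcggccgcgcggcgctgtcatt
Slc2a1, chr4:119108495-119108744, plus strand: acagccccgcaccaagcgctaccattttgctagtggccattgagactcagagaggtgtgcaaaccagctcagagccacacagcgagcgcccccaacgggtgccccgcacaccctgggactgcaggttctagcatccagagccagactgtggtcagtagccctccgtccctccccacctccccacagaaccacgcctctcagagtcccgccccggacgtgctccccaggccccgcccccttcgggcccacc
Slco1c1, chr6:141524104-141524353, plus strand: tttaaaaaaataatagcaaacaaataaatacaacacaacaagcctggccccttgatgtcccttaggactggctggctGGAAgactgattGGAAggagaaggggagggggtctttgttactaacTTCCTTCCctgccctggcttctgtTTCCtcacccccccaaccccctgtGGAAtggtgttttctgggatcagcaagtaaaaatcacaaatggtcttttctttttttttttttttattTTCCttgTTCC
The Slco1c1 stretch held 8 copies and 0 CpG pairs, the Slc2a1 stretch 0 copies and 13 CpG pairs. The Slc7a1 stretch held 1 copy and 21 CpG pairs, and the Abcg2 stretch 1 copy and 3 CpG pairs. These 2 genes have further windows. In order of coordinate, the full windows of Abcg2 held 2, 6 and 2 copies and 3, 10 and 28 CpG pairs. Those of Slc7a1 held 5 and 2 copies and 7 and 27 CpG pairs. Over the full windows, CpG pairs numbered 42 for Slc16a1, 22 for Mfsd2a, 10 for Slc38a5 and 2 for Abcb1a. The Abcb1a window begins at base 8566841 of chromosome 5, upstream of the gene start at 8660077 given below. The median was 20 in 12420 windows of tested genes and 4 in 8368 windows of genes not tested. Expressed and near-silent transporters thus both included windows rich and poor in CpG. A match is a description of letters, and binding was not measured.

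The groups were first compared with the edgeR quasi-likelihood test over all 12753 tested genes. This test called 0 of the 7 tested transporters, with adjusted p values of 0.996 to 0.997, and 0 of the 7 had an unadjusted p under 0.05. DESeq2 and limma-voom also called 0 of them. Over all tested genes the edgeR test called 0.00784%. The KO and WT values overlapped for each of the 7, while 10.2% of tested genes had values that did not overlap.

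Libraries with the same number resembled each other. Across tested genes, KO and WT libraries of numbers 1, 2 and 3 had correlations of 0.776, 0.857 and 0.652 between their deviations from their group's mean, so the numbers were taken as pairs and a second test used them as a block (the paired test). The labels do not state a pairing, and the paired test leaves 2 residual degrees of freedom. It called 3 of the 7 transporters higher in the libraries labelled KO, Slc7a5, Abcg2 and Slc7a1, and 0 lower. Of all tested genes it called 4.81% (613) higher and 4.01% (511) lower, 8.81% in all, or 471 higher and 734 lower with scaling by library size alone, under which the same number of members, 3, was higher. Stromal markers moved in the same test: of 7 tested fibroblast genes 3 were called lower, among them Col1a1 (-0.33, adjusted p = 0.00281), and 1 higher, and of 10 tested mural genes 3 were lower and 0 higher. With DESeq2 and the block 0 fibroblast genes and 1 mural gene passed, and the part of these markers in the transporter calls was not tested. Of the 12 endothelial markers, the paired test called 2 higher and 1 lower, or 1 higher and 1 lower with DESeq2 and the block. The median log2 fold change was 0.15 over the 7 and -0.0033 over all tested genes. Of the 7, 5 were higher in the library labelled KO in all 3 pairs and 0 were lower in all 3, against 20.5% and 20.1% of tested genes.

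**Figure D2:**
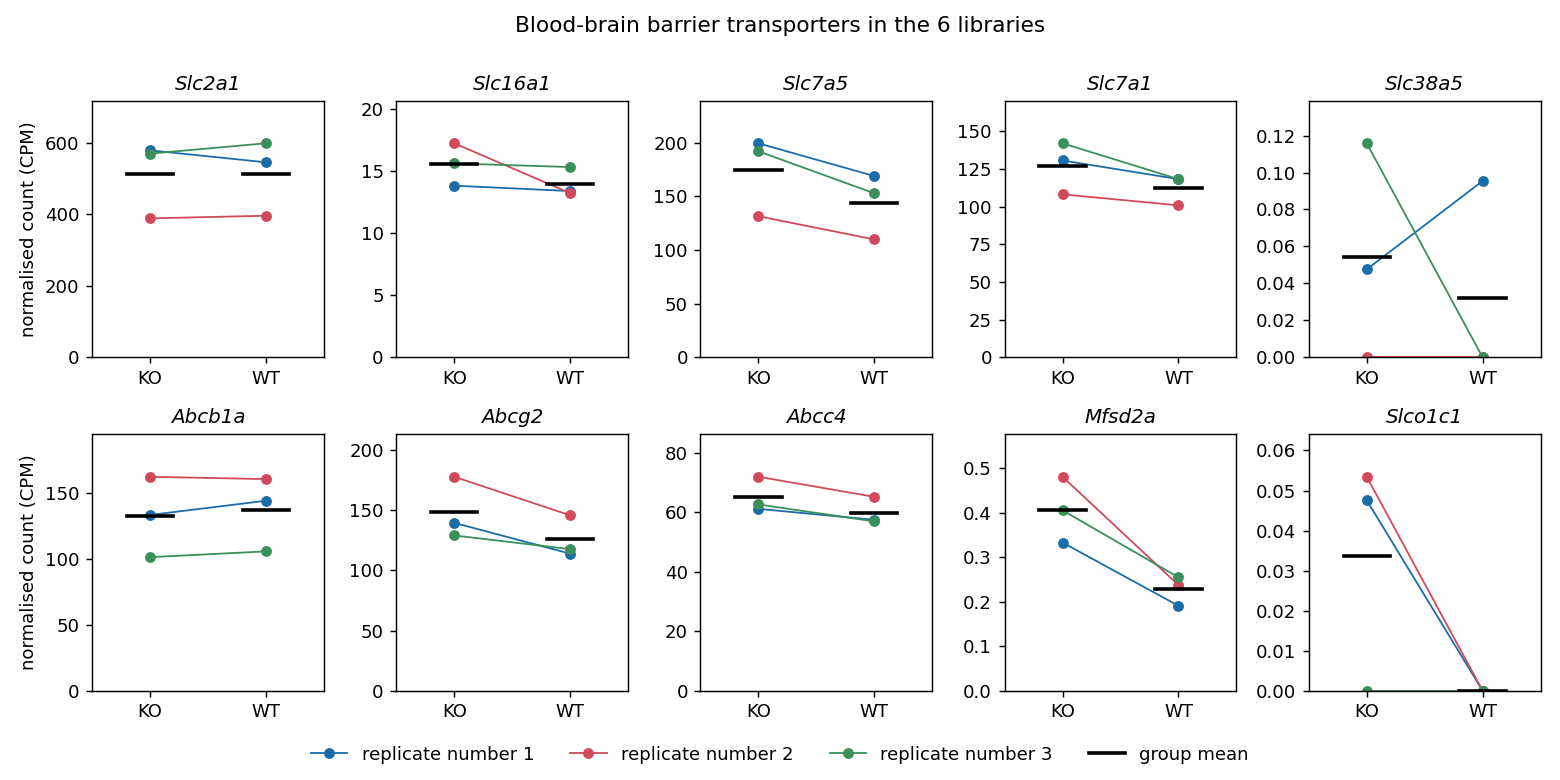
Normalised count (CPM, linear axes from 0) of each transporter in the 3 KO and 3 WT libraries. Points of the same replicate number share a colour and a line, and black bars are group means; all 3 lines of Slc7a5, Slc7a1, Abcg2, Abcc4 and Slc16a1 end lower on the WT side, and number 2 is the lowest for Slc2a1 and Slc7a5 and the highest for Abcb1a and Abcg2 in both groups.

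The amino acid carriers Slc7a5 and Slc7a1 were both higher in the libraries labelled KO in the paired test. Slc7a5 (GRCm38 chromosome 8, 121881150 to 121907694, minus strand) had 199, 131 and 192 CPM in libraries KO 1 to 3, against 169, 110 and 153 CPM in WT 1 to 3. The groups overlap because both libraries numbered 2 are low, yet the KO value is the higher in each pair. The log2 fold changes within the pairs were 0.24, 0.26 and 0.33. The paired test gave 0.28 ± 0.042 (SE, edgeR adjusted p = 7.39e-06), a level 21.1% higher, and the group comparison gave 0.28 ± 0.22 (SE, adjusted p = 0.996), or 0.11 without WT 2 and 0.44 without KO 2. Slc7a1 (chromosome 5, 148327410 to 148399904, minus strand) had 131, 108 and 142 CPM in libraries labelled KO, against 118, 101 and 118 CPM in those labelled WT. Its pairs differed by 0.14, 0.10 and 0.26 on the log2 scale, all higher in KO, and the paired test gave 0.17 ± 0.045 (SE, adjusted p = 0.0102). This call was lost with DESeq2 (adjusted p = 0.143), without pair 2 (adjusted p = 0.0521) and without pair 3 (adjusted p = 0.168).

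LAT1 works only as a heterodimer with the heavy chain encoded by Slc3a2. Slc3a2 had 151, 142 and 154 CPM in libraries labelled KO and 146, 146 and 154 CPM in those labelled WT, and did not pass the paired test (0.0016 ± 0.043, SE, adjusted p = 0.986). The light and heavy chain transcripts thus had unlike values: Slc7a5 passed the paired test and Slc3a2 did not, and the difference between them was not tested. Per kilobase of exon they were close, at means of 42.9 for Slc7a5 and 42.1 for Slc3a2 over all 6 libraries.

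Among the efflux pumps, Abcg2 (chromosome 6, 58584523 to 58695676, plus strand) had 140, 178 and 129 CPM in libraries KO 1 to 3, against 114, 146 and 118 CPM in WT 1 to 3. Both libraries numbered 2 were the high ones here, opposite to Slc7a5, and KO was the higher in each pair. The pairs differed by 0.29, 0.29 and 0.13, and the paired test gave 0.24 ± 0.044 (SE, adjusted p = 0.000154) as log2 fold change, a level 18.05% higher. Abcg2 passed with DESeq2 (adjusted p = 0.00515) and without pair 2 (adjusted p = 0.0363). Abcc4 (chromosome 14, 118482692 to 118706219, minus strand) had 61.2, 72.0 and 62.7 CPM in libraries labelled KO, against 57.5, 65.2 and 56.9 CPM in those labelled WT. Its pairs differed by 0.089, 0.14 and 0.14, all higher in KO, and it did not pass (0.12 ± 0.051, SE, paired adjusted p = 0.139).

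Abcb1a, the main P-glycoprotein gene of mouse brain capillaries (chromosome 5, 8660077 to 8748575, plus strand), had 133, 162 and 101 CPM in libraries labelled KO, against 144, 161 and 106 CPM in those labelled WT. The numbers ordered these values in the same way in both groups, and the pairs went in both directions (-0.11, 0.016 and -0.061). The paired log2 fold change was -0.052 ± 0.044 (SE, adjusted p = 0.561). Its close paralogue Abcb1b, which rises when rodent brain endothelium is cultured, was detected at 38.0, 43.5 and 40.7 CPM in libraries labelled KO and 38.9, 48.8 and 42.3 CPM in those labelled WT (paired log2 fold change -0.086 ± 0.058, SE, adjusted p = 0.43). Per kilobase of exon, Abcb1a was the more abundant, at a mean of 24.6 against 5.26 for Abcb1b. Of the 50-base windows in Abcb1a transcripts, 17.6% also occur in another gene, foremost Abcb1b, so the split of reads between the pair is uncertain. For the other 9 transporters at most 0.663% of windows were shared. Antisense or unconfirmed genes on the opposite strand overlap 10.1% of the exon bases of Abcb1a and 2.99% of those of Slc2a1, and without a stated strand setting their reads cannot be told apart.

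Slc2a1 (chromosome 4, 119108711 to 119137983, plus strand) had 580, 389 and 570 CPM in libraries KO 1 to 3, against 546, 396 and 599 CPM in WT 1 to 3. The values fall by number, with number 2 low in both groups, and not by label. The paired log2 fold change was -0.0042 ± 0.041 (SE, adjusted p = 0.97), with KO higher in 1 of 3 pairs. Slc16a1 (chromosome 3, 104638668 to 104658462, plus strand) had 13.8, 17.3 and 15.6 CPM in libraries labelled KO, against 13.4, 13.2 and 15.3 CPM in those labelled WT. KO was higher in all 3 pairs, by 0.046, 0.38 and 0.027, so pair 2 carried nearly all of the difference, and the paired test did not call it (0.15 ± 0.092, SE, adjusted p = 0.354). Without pair 2 the value was 0.034. Basigin, encoded by Bsg, escorts MCT1 to the cell surface, and its transcript had 482, 471 and 503 CPM in libraries labelled KO and 439, 466 and 515 CPM in those labelled WT (paired log2 fold change 0.041 ± 0.041, SE, adjusted p = 0.644).

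**Figure D3:**
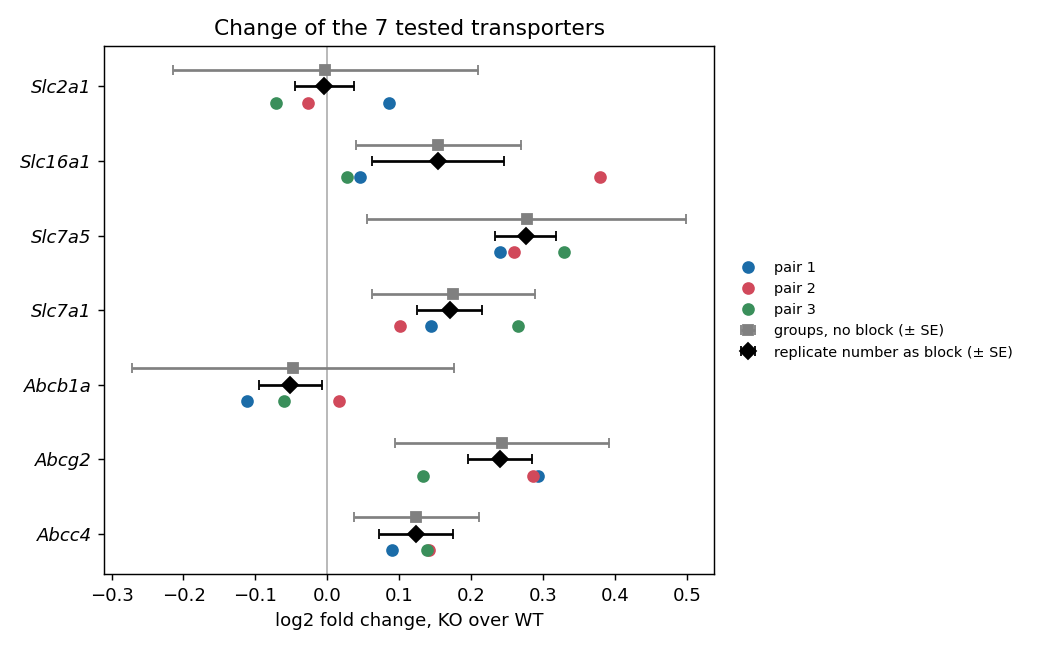
Log2 fold change, KO over WT, of the 7 tested transporters. Coloured points are the 3 same-numbered pairs, grey squares the group comparison and black diamonds the paired test, with bars of 1 SE; Slc7a5, Abcg2 and Slc7a1 passed the paired test, and no member passed the group comparison.

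Levels of the transporters also differed between replicate numbers. For 7 of the 7 tested transporters, the range over the 3 number means exceeded the paired fold change, both on the log2 scale. A range over 3 means and a single mean difference are unlike measures. The share of all tested genes with such a range was not counted, so nothing particular to the transporters is read from it. For Slc7a5 the range was 0.61 and for Abcg2 it was 0.39. Averaged over both groups on the log2 scale, libraries numbered 2 were 0.685 times the level of the other numbers for Slc2a1, 0.678 times for Slc7a5 and 0.823 times for Slc7a1. They were 1.35 times for Abcb1a, 1.29 times for Abcg2 and 1.15 times for Abcc4. Slc16a1 was 1.04 times. Of the members, Slc2a1, Slc7a5 and Slc7a1 were thus low, and the pumps high, in the libraries with the most fibroblast transcripts. Outside the set, the amino acid carrier Slc38a2 was lowest in number 2 of both groups, and Slc43a3 was highest there. Abcb1a was lower in number 3 than in number 1 in both groups, while the fibroblast sums were higher in number 3. The part of stromal cells in these differences was not tested.

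Other transporters were described from lists. Of 13 tested ABC transporters outside the set, the paired test called 0 higher and 2 lower. Abcc10, an efflux pump of the MRP family, had 5.90, 4.60 and 5.39 CPM in libraries labelled KO and 8.44, 7.79 and 7.80 CPM in those labelled WT, without overlap (log2 fold change -0.60 ± 0.13, SE, adjusted p = 0.000785). Abca1, which exports cholesterol, had a log2 fold change of -0.14 (adjusted p = 0.0445). Neither passed with DESeq2 and the block (adjusted p = 0.104 and 0.355).

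Of 19 tested amino acid carriers outside the set, 3 were called higher and 1 lower. Slc1a5, which carries glutamine and other neutral amino acids, had 15.1, 16.2 and 24.0 CPM in libraries labelled KO and 12.6, 12.9 and 16.3 CPM in those labelled WT (log2 fold change 0.39 ± 0.088, SE, adjusted p = 0.00191). Slc43a3 and Slc38a2 rose by 0.21 and 0.13 on the log2 scale (adjusted p = 0.00449 and 0.0427). Slc1a1, a glutamate and cysteine carrier, averaged 3.85 ± 2.40 CPM in libraries labelled KO and 6.31 ± 2.84 CPM in those labelled WT (SD, n = 3 each; log2 fold change -0.72, adjusted p = 0.000626). With DESeq2 and the block 0 of this list passed in either direction, and the median over its 19 tested genes was 0.0016.

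Among 22 tested sugar, monocarboxylate and lipid carriers, 5 were higher and 1 was lower. Slc16a10, an aromatic amino acid carrier of the monocarboxylate family, had 11.3, 15.4 and 12.8 CPM in libraries labelled KO and 9.35, 11.01 and 9.02 CPM in those labelled WT (log2 fold change 0.42, adjusted p = 0.00307). Slc27a1, a fatty acid uptake protein, rose by 0.32 and Slc16a9 by 0.25, and the urate carrier Slc2a9 fell by 0.33 (adjusted p = 0.00949, 0.0201 and 0.0249). Without pair 2, 1 of this list was higher and 0 lower, and with DESeq2 and the block 0 passed in either direction.

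Of 35 tested carriers of organic ions, nucleosides, vitamins and metals, 2 were higher and 3 lower. Slc40a1, the iron exporter ferroportin, had 114, 98.3 and 89.0 CPM in libraries labelled KO and 91.7, 68.8 and 74.0 CPM in those labelled WT. The rise was 0.37 ± 0.050 on the log2 scale (SE, adjusted p = 6.96e-07). The equilibrative nucleoside carrier Slc29a1 rose by 0.30 (adjusted p = 0.00048), and both also passed with DESeq2 and the block. Slco2a1, the prostaglandin carrier, and Slco4a1 fell by 0.61 and 0.21 (adjusted p = 0.0033 and 0.00699), and neither passed with DESeq2 and the block (adjusted p = 0.124 and 0.191). Without pair 2, 2 were higher and 1 lower. Slco2a1 had 1.19, 12.8 and 4.58 CPM in libraries KO 1 to 3 and 3.15, 19.9 and 4.996 CPM in WT 1 to 3, highest where fibroblast transcripts were highest. Slco1a4, the other organic anion carrier typical of mouse brain capillaries, was low, with 2.33, 1.07 and 0.985 CPM in libraries labelled KO and 3.39, 1.42 and 1.38 CPM in those labelled WT, and it did not pass (log2 fold change -0.49 ± 0.24, SE, adjusted p = 0.233).

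Among 19 tested transcytosis and vesicle genes, 6 were higher and 1 was lower. Lrp8, a lipoprotein receptor, rose by 0.44 (adjusted p = 8.11e-06). Cav1, the main protein of caveolae, had 3750, 2850 and 3550 CPM in libraries labelled KO and 3360, 2280 and 3110 CPM in those labelled WT, a rise of 0.22 (adjusted p = 0.000168) that did not pass without pair 2 (adjusted p = 0.156). Lrp1 fell by 0.44 (adjusted p = 4.06e-06), and its level of 23.2, 188 and 74.5 CPM in libraries labelled KO and 37.4, 261 and 88.0 CPM in those labelled WT moved with the fibroblast sums, whose part was not tested. Without pair 2, and likewise with DESeq2 and the block, 2 genes were higher and 1 lower. Of 28 tested junction and Wnt genes, 1 was higher (Fzd6, by 0.16, adjusted p = 0.00719) and 1 lower (Tcf7, by 0.70 at 1.56 against 2.54 CPM, adjusted p = 0.0407). Neither gene passed without pair 2 (adjusted p = 0.349 and 0.379), and 0 genes of this list passed with DESeq2 and the block. Without pair 2, 0 genes of this list were higher and 1 was lower. This was the claudin Cldn5, named after its values were seen (-0.22, adjusted p = 0.0170). Cldn5 was not called with all 3 pairs. It also passed without pair 1 (-0.28, adjusted p = 0.0457), and its value was -0.0077 without pair 3 (adjusted p = 0.954). In the group comparison 0 genes of these 6 lists passed.

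**Figure D4:**
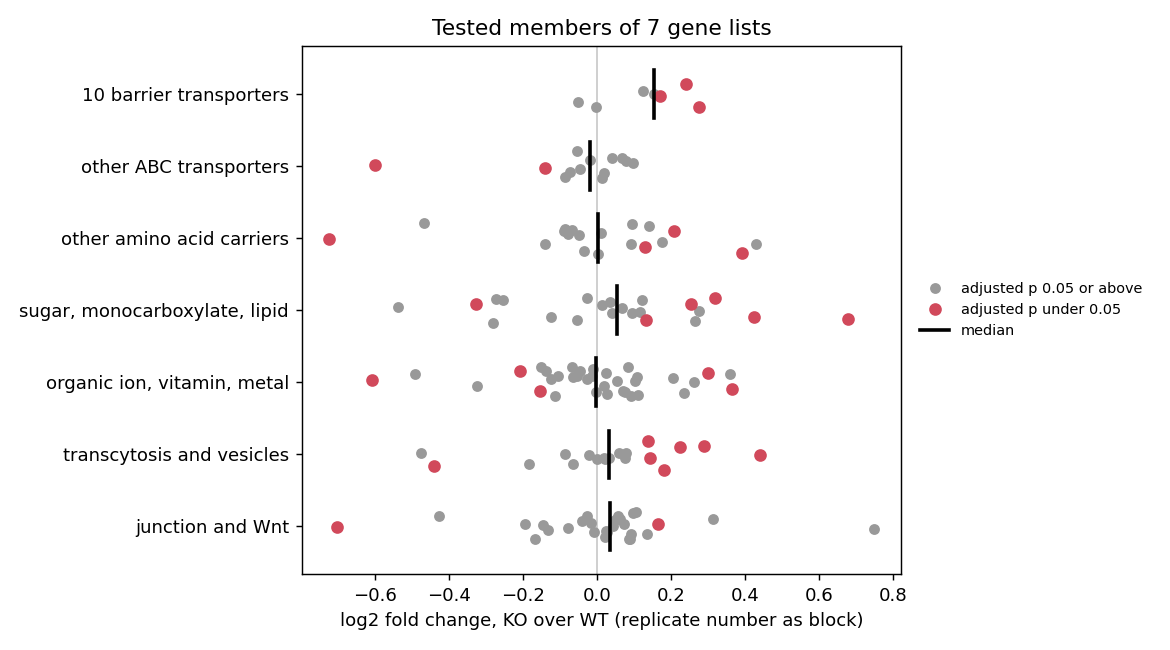
Log2 fold change in the paired test, KO over WT, for the tested genes of 7 lists, with 1 point a gene (vertical position within a list is arbitrary). Red points have an adjusted p under 0.05 over all tested genes and black bars are medians, 0.15 for the barrier transporters and between -0.020 and 0.053 for the 6 other lists.

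Transcripts of other brain cells that carry some of the same transporters were looked for. Ttr and Otx2, which define choroid plexus epithelium, had 0 reads in all 6 libraries, as had Aqp4 and Olig2 of glia. The choroid plexus list of 8 genes still summed to 156 to 278 CPM in libraries labelled KO and 160 to 262 CPM in those labelled WT, most of it from Clic6, at 145 ± 36.3 and 144 ± 33.5 CPM, and Enpp2, at 63.3 ± 20.4 and 52.9 ± 13.6 CPM (SD, n = 3 each). Enpp2 rose by 0.25 in the paired test (adjusted p = 0.00117), but did not pass without pair 2 (adjusted p = 0.153). Aqp1, a water channel named after its values were seen, fell by 0.69 (adjusted p = 0.000147). Without pair 1 Aqp1 did not pass (-0.39, adjusted p = 0.202), and with DESeq2 and the block its adjusted p was 0.0497. The haematopoietic list summed to 1.97 to 2.67 CPM in libraries labelled KO and 1.68 to 2.37 CPM in those labelled WT, with 9 of its 15 genes at 0 reads, among them Spi1 and Tyrobp. The astrocyte and neuroglial list summed to 12.7 to 15.3 CPM and 13.1 to 14.6 CPM, and the neuron list to 2.90 to 8.02 CPM and 3.20 to 12.8 CPM, in libraries labelled KO and WT. The most abundant gene of the neuroglial list was Aldh1l1, at 9.90 ± 1.74 and 8.88 ± 1.98 CPM, and that of the neuron list was Stmn2, at 5.23 ± 2.82 and 7.06 ± 4.61 CPM (SD, n = 3 each). The mural list summed to 1445 to 1895 CPM in libraries labelled KO and 1426 to 2254 CPM in those labelled WT, led by Tagln and Acta2.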

How the data were processed

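Raw counts of reads per gene symbol, 1 column a library, were deposited by the authors without normalisation. Per the submitters' processing notes, FastQC 0.11.8, Trim Galore 0.6.4, STAR 2.6.1d and Subread 1.6.4 with featureCounts were used, with builds mm10 and GRCm38; annotation, strand setting and the handling of reads with several hits are not stated. Per the labels' protocols, a TruSeq kit with or without strand marking was used, with no statement of which library had which.

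In R 4.3.3, edgeR 4.0.16 kept 12753 genes (filterByExpr) and scaled libraries with TMM (factors between 0.983 and 1.02). Tests were robust quasi-likelihood F tests, adjusted by Benjamini-Hochberg over all tested genes at a false discovery rate (FDR) of 0.05; SE is the fold change over the root of F. Same-numbered log2 ratios used CPM with a prior count of 2. DESeq2 1.42.0 and limma-voom (limma 3.58.1) were alternatives. With 3 against 3 libraries an exact permutation test reaches 0.1 at best (two-sided), so none was run. Same-numbered libraries correlated at 0.652 to 0.857 in their deviations, and the choice to pair them comes from the data. Between any libraries, chi-square divided by its degrees of freedom was 5.44 to 40.6, so none was a copy.

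Counts for 12637 genes were simulated with number effects taken from these data. Of genes changed by log2 0.5, the smallest change tried, the group comparison recovered 22% and the paired test 74%. Of all calls, 0% and 5.7% were false. DESeq2 with the block recovered 62%, with 0.592% of calls false. The transporters called in the paired test changed by less, 0.17 to 0.28. The simulated counts contain, by construction, the number effects and the gene-wise spread of the paired edgeR fit. They therefore cannot decide whether the pairing holds, nor what share of the calls in the real data is false.

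Exon lengths, coordinates and transcripts were from GENCODE M21 (GRCm38), matched by symbol for 95.7% of genes. The members and lists were chosen with earlier results of these data known. Named genes were the 10 members, Fli1, 4 partners or paralogues, up to 4 genes per other list with the smallest p among paired calls, and abundant or defining marker genes. A gene that this rule also takes is not reported here.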

Additional observations from a re-analysis of the deposited data

How the results depend on the processing

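Of the 10 transporters, 7 were expressed at each minimum level tried. Without the block, counts of higher and lower genes were 12 and 7 with DESeq2. Under limma-voom, an FDR of 0.01 or a minimum of 1.5-fold 0 genes were lower, and leaving out 1 library gave 0 to 1 lower and 0 higher; 0 transporters were called under these settings. The replicate block called 613 genes higher and 511 lower, and 3 transporters higher. In the paired test, genes higher and lower numbered 262 and 111 with DESeq2, 388 and 259 at an FDR of 0.01, and 22 and 5 at a minimum of 1.5-fold, where 0 transporters passed. With 1 pair left out there were 339 to 603 higher, 205 to 600 lower and 2 to 3 transporters higher. Slc7a5 and Abcg2 passed under every paired alternative run other than the 1.5-fold minimum; Slc7a1 no longer passed under 5 of them, and the cause was not tested. With unscaled CPM, 1 transporter, Abcb1a, was lower in all 3 pairs. Leaving out 1 library turned the log2 fold change of Slc2a1 (-0.16 to 0.16) and Abcb1a (-0.22 to 0.11) without the block, and leaving out a pair turned Slc2a1 (-0.052 to 0.030, and 0.0049 without pair 2); neither passed. Without the block and 1 library, Abcg2 lay at 0.095 (without KO 2) to 0.36 (without WT 2), Slc7a1 at 0.087 (without KO 3) to 0.28 (without KO 2), Slc16a1 at 0.074 (without KO 2) to 0.23 (without KO 1) and Abcc4 at 0.048 (without KO 2) to 0.19 (without WT 2). At these depths a gene with 0 reads may lie at up to 0.174 CPM.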
